A study of Mus musculus with 12 samples.

Results

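Protocadherins are the largest family of cadherin-type adhesion proteins in mammals, and their messages were followed here through 2 murine ovarian cancer cell lines with and without added miR-200. The family was taken as every gene whose symbol is Pcdh, with or without a cluster letter, followed by a number, and 70 of the 57010 genes in the deposited tables met this rule. Of these, 58 were clustered genes, namely 14 of the alpha cluster (Pcdha), 22 of the beta cluster (Pcdhb) and 22 of the gamma cluster (Pcdhg), and 12 were non-clustered genes. The rule used symbols only, so no measured value chose a member. ID8 and 28-2 cells carried either an empty lentiviral vector with an EF1A promoter and puromycin resistance (ID8EV and 28-2EV), or a pair of lentiviral vectors with CMV promoters for both miR-200 clusters, that of miR-200c with miR-141 and that of miR-200b with miR-200a and miR-429 (ID8-200f and 28-2-200f). Each of the 4 groups had 3 libraries of total RNA from cells grown in 2D culture. The study calls these independent samples, and each group came from a drug-selected population. Selection used 30 µg/ml puromycin for the empty vector cells of both lines. The ID8-200f cells received 40 µg/ml puromycin with 50 µg/ml hygromycin, whereas 60 µg/ml puromycin with 1000 µg/ml hygromycin was used for 28-2-200f, so that drug, promoter and miR-200 cannot be told apart in these comparisons.

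Many protocadherins bind like to like across cell contacts. The clustered genes lie side by side in the genome, and each neuron expresses a small, largely random choice of them, set by promoter choice through CTCF, cohesin and DNA methylation, which gives its surface an identity. In the alpha and gamma clusters each variable exon is spliced to constant exons shared by the whole cluster, whereas beta genes have no constant part. The non-clustered protocadherins are scattered over the genome. They include the delta protocadherins, known for cell sorting, neurite growth and, in epithelia, junctions, and also other genes such as Pcdh15. The family is best known in the nervous system, but several members are also expressed in epithelial and mesenchymal cells.

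The miRNAs that the vectors encode fall into a pair of seed groups, which are printed because the messages of the family are searched for their partners further on. The mature sequences are those of RefSeq for build GRCm38.p6, written 5′ to 3′, with the seed (bases 2 to 8) in capitals.
mmu-miR-200b-3p: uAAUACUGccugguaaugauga
mmu-miR-200c-3p: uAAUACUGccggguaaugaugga
mmu-miR-429-3p: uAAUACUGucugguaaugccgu
mmu-miR-200a-3p: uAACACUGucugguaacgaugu
mmu-miR-141-3p: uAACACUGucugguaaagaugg
The first 3 share a seed, the other 2 share the other seed, and the groups differ at a single base of it. The miRNA genes Mir200a, Mir200b, Mir200c, Mir141 and Mir429 had 0 counts in all 12 libraries, so the miRNAs themselves were not measured in these data. The paper measured them by PCR. In ID8 cells given both clusters, it reported significant increases for the miRNAs of Mir200a, Mir200b and Mir200c, but not of Mir141 or Mir429. In the other line given both clusters, it reported a significant increase for every member. The lines thus differed in which miRNAs were found to rise.

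Libraries held 16390953 to 23063875 counts in total, of which 2118 to 5796 fell on protocadherins. Counts of replicate pairs were compared by chi-square, which divided by its degrees of freedom was 5.42 to 23.0 within the ID8 groups and 28.7 to 145 within the 28-2 groups (1 being counting error), and both pairs that included 28-2EV replicate 2 (94.5 and 145) were above the remaining 28-2EV pair (56.8). That library is therefore named wherever a protocadherin result rests on it. All 10 ovarian surface epithelium markers had reads in every group, with a summed level of 4356 to 9292 CPM (counts scaled to library size). The sum was uneven, with group means of 1015 to 1655 CPM for Krt8 and 1045 to 2332 CPM for Krt19. Those of Krt7 ran from 1.05 CPM in 28-2EV to 545 CPM in 28-2-200f. Those of Lrrn4 ran from 0.701 CPM in 28-2-200f to 50.6 CPM in ID8EV. Of 10 neuronal markers, Rbfox3, Stmn2, Nefl and Nefm were at 0 in all 12 libraries and the summed level was 7.50 to 22.3 CPM.

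The cells used a narrow part of the family. Of the 70 genes, 19 had no read in any library, 9 had 1 to 9 reads over all 12 libraries, and 42 had 10 or more. The alpha cluster was close to silent, with 1 read in total, assigned to Pcdha9 in ID8EV replicate 2. The other 13 alpha genes were at 0, which over 12 libraries allows up to 0.0134 CPM each, counting error only. Among the non-clustered genes, Pcdh8, Pcdh10, Pcdh11x and Pcdh20 were also at 0 in every library, and Pcdh12, an endothelial protocadherin, had 1 read. At a group mean of at least 0.5 CPM, 20 genes were detected in ID8EV, 15 in ID8-200f, 17 in 28-2EV and 14 in 28-2-200f. At this level the lower numbers were among clustered genes, of which 14 were detected in ID8EV and 9 in ID8-200f, and 11 in 28-2EV and 7 in 28-2-200f. At a lower bar of 0.1 CPM the 4 numbers for the family were 29, 26, 28 and 25. At 0.5 CPM the non-clustered genes numbered 6, 6, 6 and 7 in the same order of groups, the added one in 28-2-200f being Pcdh15.

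Reads in both transcribed clusters were concentrated toward their downstream end. In the beta cluster, the last 11 genes held 95.3% ± 2.37 (SD, n = 3) of beta reads in ID8EV, 86.0% ± 3.99 in ID8-200f, 92.3% ± 6.77 in 28-2EV and 92.4% ± 3.14 in 28-2-200f. The Spearman correlation of a gene's place in the cluster with its level per kilobase of exon unshared on the same strand was 0.52 to 0.78 over the 22 beta genes and 0.64 to 0.70 over 21 gamma genes, given as a description of the 4 groups, since the genes share libraries and differ in mappable length. Pcdhb17, Pcdhb19 and Pcdhb22 led the beta cluster, with mean levels of 1.33, 0.829 and 0.796 TPM (counts scaled to exon length and library size) over all libraries, and Pcdhb20 followed at 0.565 TPM. In the gamma cluster the leading genes were Pcdhgc3 at 22.9 TPM, Pcdhga12 at 1.52 TPM, Pcdhgc4 at 1.27 TPM and Pcdhgb6 at 0.835 TPM. As means over all libraries, the beta and gamma levels other than that of Pcdhgc3 were therefore below those of the 6 non-clustered genes detected in every group, which ran from 2.66 TPM for Pcdh9 to 22.9 TPM for Pcdh7. Within a group this did not always hold. In ID8EV, Pcdhga12 was at 2.44, 2.38 and 3.62 TPM and Pcdh1 at 2.51, 2.23 and 1.80 TPM. TPM also divides by whole exon length, shared bases included, which lowers gamma values if reads of shared bases were not counted.

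**Figure D1:**
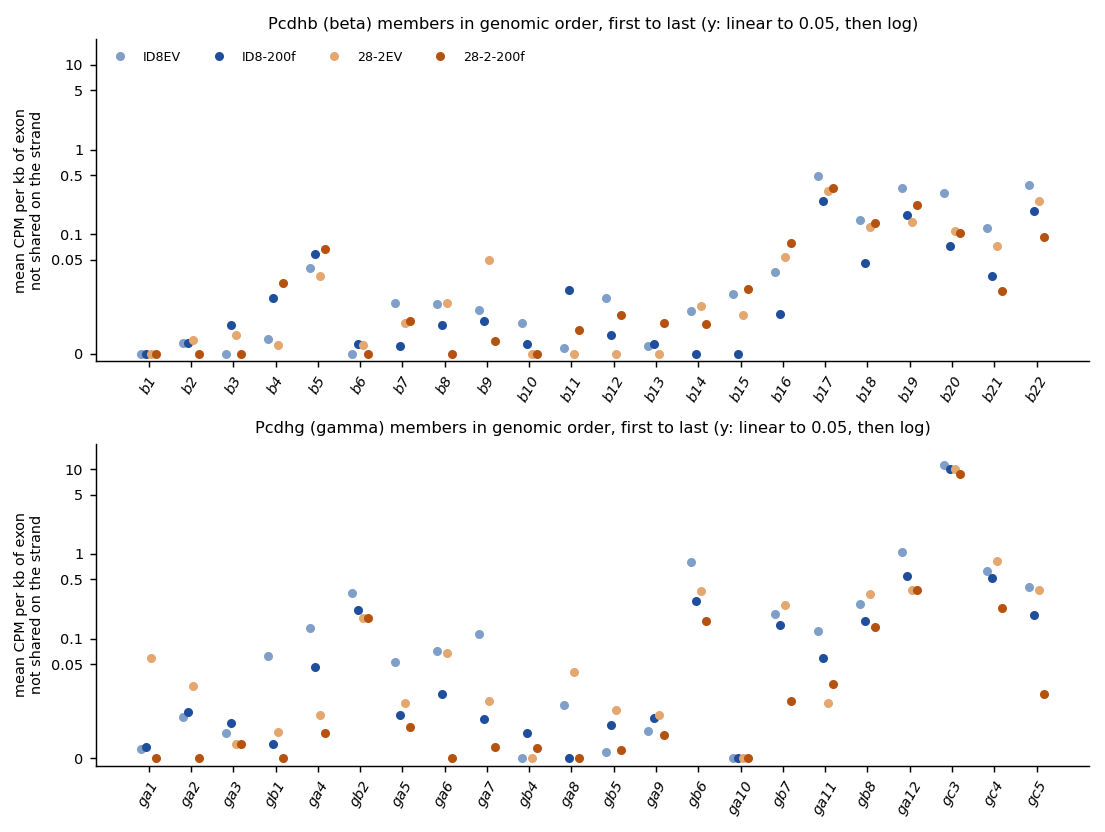
Mean level of each beta (top) and gamma (bottom) protocadherin in genomic order, in CPM per kilobase of exon that no other gene shares on the same strand (vertical axis linear up to 0.05, logarithmic above), with a point for each of the 4 groups. Levels rise toward the last genes of both clusters, and Pcdhgc3 lies at 8.88 to 11.2 in all groups, above every other clustered gene.

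A limit of counting applies to the alpha and gamma genes, which with the beta genes lie on mouse chromosome 18. In the annotation whose exon lengths match the deposited tables, 2116 to 3157 bases of each gamma gene and 2860 to 2864 bases of each alpha gene are shared with other members. With exons of either strand counted as sharing, the unshared part of an alpha gene is 7.004 to 51.4% and that of a gamma gene is 0 to 68.5% of its exon length. Pcdhga10 has no unshared base when antisense exons count, though 2613 of its bases are shared with no gene on its own strand. It had 0 reads in all 12 libraries, also over the 2119 bases it shares with other members. Reads of shared exons were thus not given to each gene they overlap, and each gamma or alpha value, the near absence of alpha reads included, rests on the unshared bases. By contrast, 19 of the 22 beta genes share no exon base with another gene. Pcdhgc3, Pcdhga12 and Pcdh7 overlap antisense genes, which had 0 to 3, 0 to 4 and 7 to 31 reads per library, and Pcdh19 overlaps one that was not analysed here. The strand setting was not given in the sources used here, so without it reads of these genes and of their antisense partners cannot be told apart.

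Pcdhgc3, a C-type gamma isoform that inhibits Wnt signalling in mouse neurons, supplied most gamma reads in every library and differed little between groups. Its level was 38.7, 35.7 and 39.4 CPM in the ID8EV libraries against 33.7, 38.4 and 30.8 CPM in ID8-200f. In 28-2EV it was 30.9, 33.2 and 37.4 CPM, against 25.01, 26.5 and 38.5 CPM in 28-2-200f. The groups overlapped in both lines, and the log2 fold changes of -0.16 (SE 0.10) and -0.20 (SE 0.21) did not pass the test (adjusted p 0.238 and 0.652, edgeR quasi-likelihood test). Because the other gamma genes were lower, its share of gamma reads was 67.9 to 74.8% in ID8EV and 79.2 to 84.0% in ID8-200f, without overlap, and 69.6 to 92.2% in 28-2EV and 85.0 to 91.0% in 28-2-200f, with overlap.

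Summed levels, which need no filter and hold every member, moved in opposite directions for the clustered and non-clustered genes in ID8 cells. The 22 beta genes together gave 10.7 ± 1.74 CPM (SD, n = 3) in ID8EV and 5.03 ± 0.957 CPM in ID8-200f, and the 21 gamma genes other than Pcdhgc3 gave 14.7 ± 3.47 and 8.06 ± 0.757 CPM. The 12 non-clustered genes gave 137 ± 14.5 CPM in ID8EV and 204 ± 11.4 CPM in ID8-200f. None of these sums overlapped between the ID8 groups. In 28-2 cells the non-clustered sum was 79.7 ± 24.3 CPM in 28-2EV and 159 ± 24.8 CPM in 28-2-200f, again without overlap. The beta sum was 6.45 ± 2.93 and 6.29 ± 2.85 CPM and the gamma sum without Pcdhgc3 was 10.3 ± 6.88 and 4.29 ± 0.426 CPM, both with overlap. The spread of that gamma sum in 28-2EV came from replicate 2, at 2.80 CPM where the highest was 16.3 CPM. These RNA pools cannot tell fewer expressing cells from less RNA per cell.

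**Figure D2:**
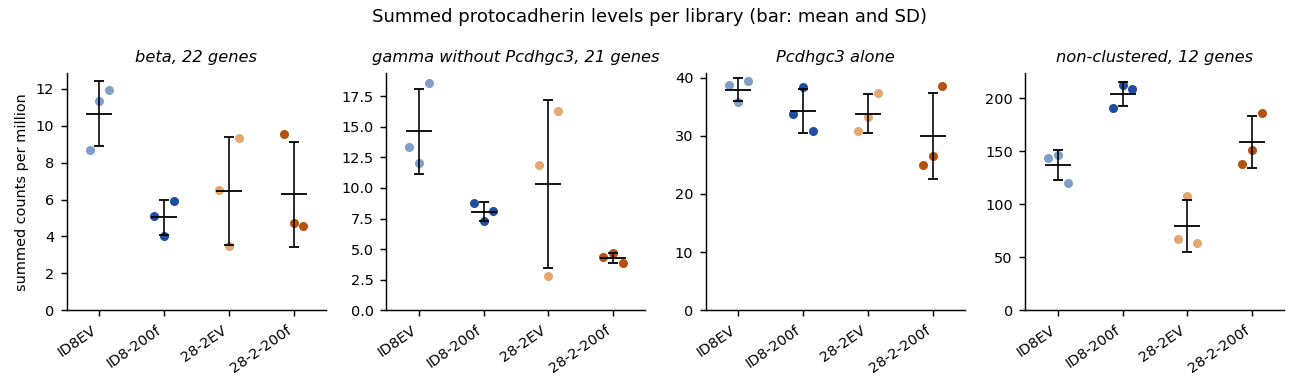
Summed CPM per library (points) with the group mean and SD (bars) for the 22 beta genes, the 21 gamma genes other than Pcdhgc3, Pcdhgc3 alone and the 12 non-clustered genes. In ID8 the beta sum was 10.7 CPM with the empty vector and 5.03 CPM with miR-200, while the non-clustered sum rose from 137 to 204 CPM on average.

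In ID8 cells, 10 of the 18 protocadherins that passed the filter on low counts changed with miR-200 at an adjusted p under 0.05, where 36.0% of all genes did, and the direction followed the class. The 7 lower genes were all clustered (Pcdhb17, Pcdhb19, Pcdhb20, Pcdhb22, Pcdhgb6, Pcdhga12 and Pcdhgc5) out of 12 clustered genes tested, and the 3 higher genes were all non-clustered (Pcdh1, Pcdh17 and Pcdh19) out of 6. Of all 13280 genes tested in this line, 19.0% were lower and 17.0% higher by the same test. The values of the empty vector and miR-200 libraries did not overlap for 10 of the 18, beside 51.3% of all genes. At the cut-off of the study, which asks for an adjusted p below 0.01 and a log2 fold change beyond 1 either way, Pcdhb20 and Pcdhgb6 were lower and Pcdh1 and Pcdh17 higher, where 5.72% of all genes were lower and 1.69% higher. The median log2 fold change was -1.002 over the 12 clustered genes and 0.44 over the 6 non-clustered genes, against -0.001 over all genes. Pcdhb20 passed the filter through ID8EV alone, so a lower value was built into its selection. Pcdhb20, Pcdhgb6 and Pcdhga12 kept their calls when any 1 library was left out, while Pcdhb17, Pcdhb19, Pcdhb22 and Pcdhgc5 each lost theirs without some libraries. With all 4 groups in one fit, in which both lines share the spread estimated for a gene, Pcdh1 alone was called (2.65% of all 13620 genes were higher and 4.75% lower in that fit). The cause of the lost calls was not tested.

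The 4 beta genes that fell had log2 fold changes from -2.12 to -1.03. Pcdhb20 was 1.13, 1.34 and 0.851 CPM in ID8EV and 0.0967, 0.272 and 0.407 CPM in ID8-200f. The groups did not overlap, and the log2 fold change was -2.12 (SE 0.49, adjusted p 0.00422), on 68 counts against 15. Pcdhb19 was 2.09, 3.11 and 2.42 CPM in ID8EV and 1.69, 0.724 and 1.16 CPM in ID8-200f, with the log2 fold change at -1.11 (SE 0.34, adjusted p 0.0191). It too did not overlap. Pcdhb22, the last gene of the cluster, was 2.09, 1.77 and 3.15 CPM against 1.499, 0.950 and 1.05 CPM, and its log2 fold change was -1.03 (SE 0.33, adjusted p 0.0255). Pcdhb17 (log2 fold change -1.07, SE 0.37, adjusted p 0.0359) was the exception among the beta calls in that its highest ID8-200f library, at 1.86 CPM, lay above its lowest ID8EV library, at 1.75 CPM. Among beta genes too low to test, Pcdhb14 had 13 counts over ID8EV and 0 over ID8-200f, at least 4.18-fold lower when the empty group is set to a floor of 3 counts in all, while Pcdhb11 went the other way, with 1 count over ID8EV and 9 over ID8-200f, a 9.33-fold ratio (95% counting interval 1.29 to 409).

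Of the gamma genes, Pcdhga12 had the most counts after Pcdhgc3. It was 4.11, 4.11 and 6.21 CPM in ID8EV and 2.56, 2.35 and 2.56 CPM in ID8-200f, so the lowest empty vector library was above every miR-200 library. Its log2 fold change was -0.98 (SE 0.23, adjusted p 0.00525). Pcdhgb6 was 1.80, 1.53 and 2.85 CPM in ID8EV and 0.870, 0.407 and 0.873 CPM in ID8-200f, with the log2 fold change at -1.57 (SE 0.39, adjusted p 0.00659). Pcdhgc5, a C-type isoform, was 2.03, 1.44 and 2.17 CPM in ID8EV and 0.870, 0.950 and 0.815 CPM in ID8-200f, with the log2 fold change at -1.11 (SE 0.32, adjusted p 0.0162). Neither gene overlapped between groups. Pcdhgc4, the C-type isoform on which survival of cortical interneurons depends in mice, had its log2 fold change at -0.30 (SE 0.27, adjusted p 0.410) with 1.92, 2.10 and 2.47 CPM in ID8EV and 1.98, 1.58 and 1.80 CPM in ID8-200f. Pcdhgb2, Pcdhgb7 and Pcdhgb8 had log2 fold changes of -0.69, -0.46 and -0.71 with standard errors of 0.47 to 0.51 and did not pass the test. Their adjusted p values were 0.279 to 0.509.

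**Figure D3:**
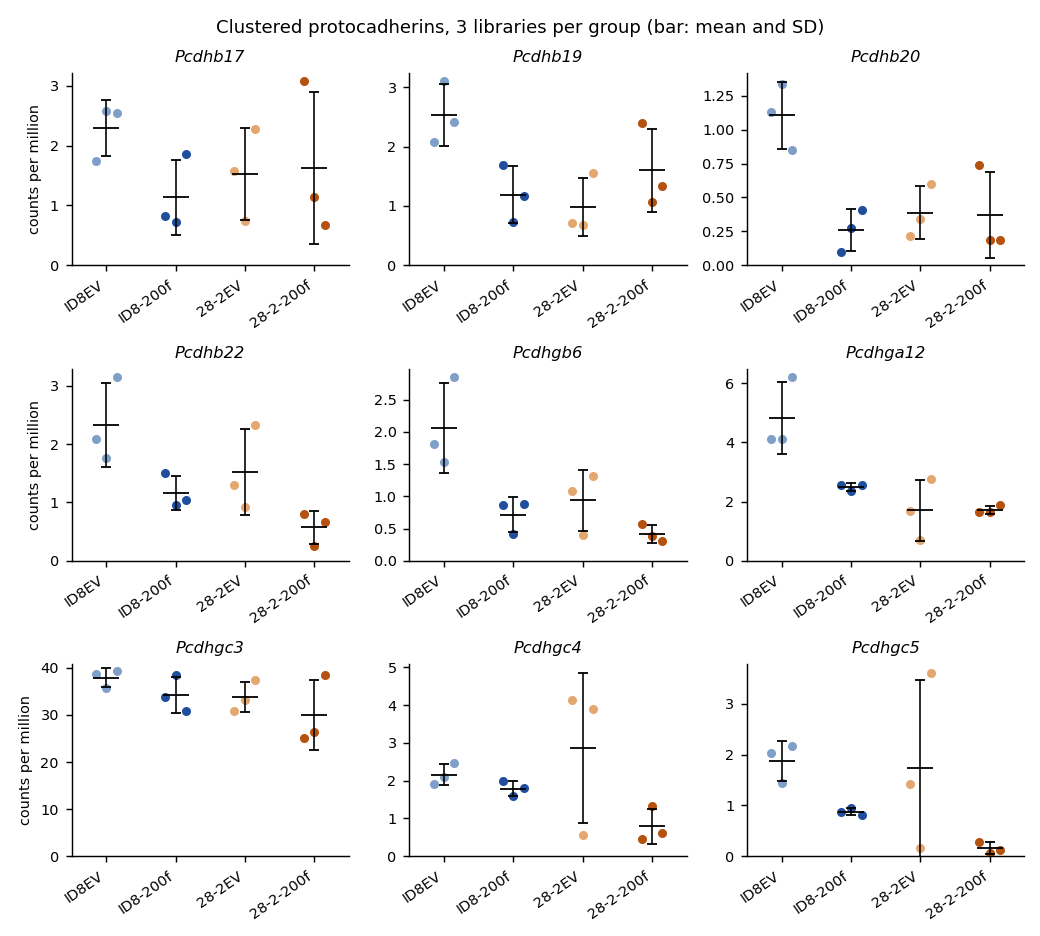
CPM per library (points) with the group mean and SD (bars) for 4 beta and 5 gamma genes, each panel starting at 0. In ID8 the miR-200 libraries lie below all empty vector libraries for Pcdhb19, Pcdhb20, Pcdhb22, Pcdhgb6, Pcdhga12 and Pcdhgc5, and overlap them for Pcdhb17, Pcdhgc3 and Pcdhgc4, while 28-2EV replicate 2 is the lowest 28-2EV library for Pcdhgc4 (0.572 CPM) and Pcdhgc5 (0.172 CPM).

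Pcdh1, a delta protocadherin of epithelial cell contacts, changed most among the non-clustered genes of ID8 cells. It was 5.58, 5.07 and 4.08 CPM in ID8EV and 20.9, 29.1 and 26.5 CPM in ID8-200f, so that the groups lay far apart. The log2 fold change was 2.36 (SE 0.17, adjusted p 2.4e-07), or 5.14-fold. Pcdh17, a delta protocadherin that recruits actin regulators to axon contacts in mice, was 8.12, 8.56 and 7.95 CPM against 22.8, 24.3 and 25.8 CPM, and the log2 fold change was 1.54 (SE 0.12, adjusted p 6.1e-07). All 3 miR-200 libraries were well above the empty vector libraries. Pcdh19, an X-linked delta protocadherin that acts with N-cadherin, was 46.7, 43.7 and 27.6 CPM in ID8EV and 48.9, 57.9 and 56.6 CPM in ID8-200f. The log2 fold change was 0.45 (SE 0.16, adjusted p 0.0365). Its groups did not overlap, but ID8EV replicate 3 was well below the other 2, and without it the log2 fold change was 0.25 (adjusted p 0.0795). The call was lost in 3 of the 6 fits that left out 1 library.

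The remaining non-clustered genes of ID8 did not pass the test. Pcdh7, a delta protocadherin that binds the phosphatase inhibitor Set, was the most abundant of them, with 71.4, 75.0 and 72.2 CPM in ID8EV and 86.1, 84.5 and 84.0 CPM in ID8-200f. These values did not overlap, yet the difference was small, with the log2 fold change at 0.20 (SE 0.08, adjusted p 0.0645). Pcdh9 (log2 fold change 0.43, SE 0.23, adjusted p 0.163) and Pcdh18 (0.30, SE 0.20, adjusted p 0.263) overlapped. Pcdh15, which forms the tip links of hair cells in the inner ear, was too low to test, with 0, 0 and 0 counts in ID8EV and 5, 1 and 1 counts in ID8-200f, at least 2.42-fold higher on the same floor.

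**Figure D4:**
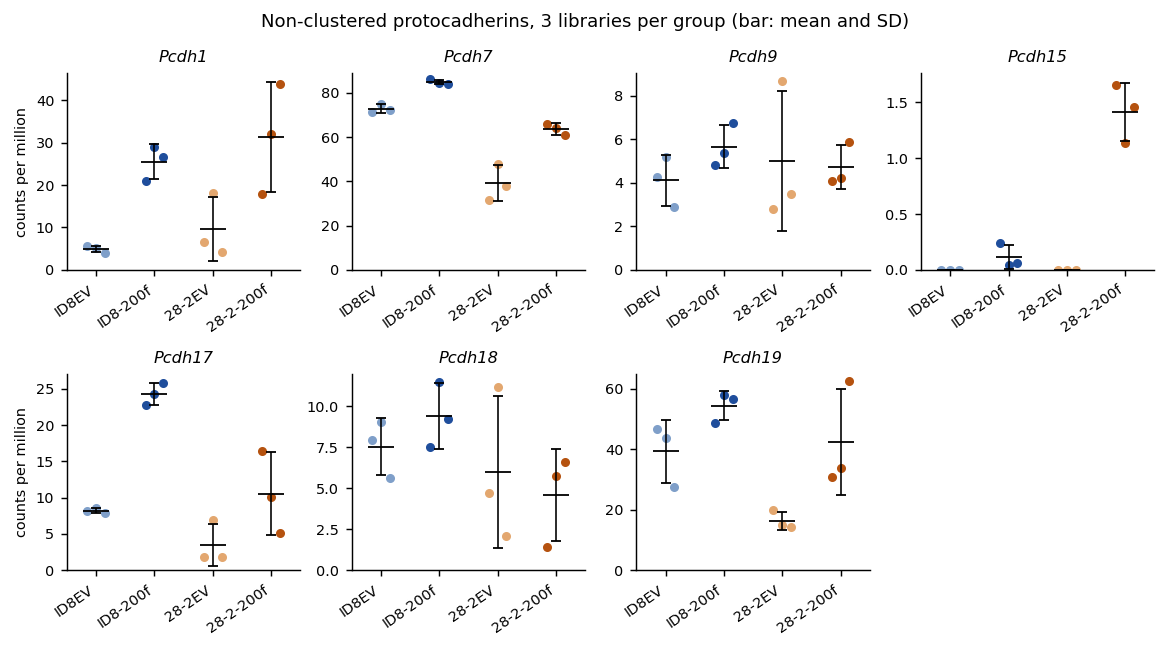
CPM per library (points) with the group mean and SD (bars) for the 7 non-clustered protocadherins that had 10 or more reads, each panel starting at 0. Pcdh1 and Pcdh17 separate in ID8, Pcdh7 and Pcdh19 separate in both lines by smaller ratios, and Pcdh15 is at 0 in all 6 empty vector libraries and at 1.14 to 1.65 CPM in 28-2-200f.

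In 28-2 cells the one called change was the appearance of Pcdh15, the tip link gene. It had 0 counts in each 28-2EV library and 29, 18 and 24 counts in 28-2-200f, or 1.65, 1.14 and 1.46 CPM, at least 24.96-fold higher on the floor of 3 counts in all (adjusted p 0.0143). It passed the filter through 28-2-200f alone, so a higher value was built into its selection. Its level per length stayed low at 0.210 ± 0.0501 TPM (SD, n = 3). It lost its call in 4 of the 6 fits without 1 library (adjusted p up to 0.0685), with the direction kept in each. So 1 of 15 protocadherins tested was higher and 0 were lower, where 2.26% of all 12679 genes were higher and 2.18% lower (4.45% in either direction). The cut-off of the study gave 0 calls among them, beside 0.757% of all genes. The paper reported far more genes for this line at that cut-off. An unadjusted p under 0.05 was reached by 5 higher and 2 lower members, beside 9.62% and 10.5% of all genes, and DESeq2 called 4 higher and 0 lower, where it called 5.62% of all genes higher and 5.96% lower.

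The 6 other non-clustered genes tested in 28-2 cells did not pass the edgeR test, and 4 of them had positive log2 fold changes. The outcome depended on the tool. DESeq2 called Pcdh19 (adjusted p 0.00124), Pcdh7 (adjusted p 0.0163) and Pcdh1 (adjusted p 0.026) higher, beside 5.62% of all genes. Pcdh19 was 19.9, 14.99 and 14.2 CPM in 28-2EV and 30.9, 33.8 and 62.6 CPM in 28-2-200f, without overlap, and its log2 fold change of 1.35 (SE 0.30) just missed the threshold (adjusted p 0.0541). Pcdh7 was 31.8, 47.9 and 38.0 CPM against 66.0, 64.2 and 60.8 CPM, also without overlap, with the log2 fold change at 0.67 (SE 0.18, adjusted p 0.0866). Values that do not overlap were found for 4 of the 15 genes, beside 26.4% of all genes tested. Pcdh1 was 6.57, 18.1 and 4.19 CPM in 28-2EV and 17.9, 32.0 and 43.8 CPM in 28-2-200f, with the log2 fold change at 1.67 (SE 0.56, adjusted p 0.155), where 28-2EV replicate 2 alone reached the level of the lowest miR-200 library. Pcdh17 was 1.85, 6.87 and 1.86 CPM against 16.5, 10.1 and 5.11 CPM, with the log2 fold change at 1.56 (SE 0.64, adjusted p 0.233), again with replicate 2 the high one. The same library also had the highest 28-2EV values of Pcdh7, Pcdh9 (8.70 CPM) and Pcdh18 (11.2 CPM), and Pcdh9 and Pcdh18 had log2 fold changes of -0.10 (SE 0.47) and -0.41 (SE 0.72). Without that library these 2 turned to 0.56 and 0.40, and the values of Pcdh1 and Pcdh17 became 2.51 (adjusted p 0.0149) and 2.48 (adjusted p 0.0325).

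Among the clustered genes of 28-2 cells none of 8 passed the test, and the spread between libraries was large. Pcdhb22 was 1.30, 0.915 and 2.34 CPM in 28-2EV and 0.798, 0.252 and 0.669 CPM in 28-2-200f, which did not overlap, with the log2 fold change at -1.41 (SE 0.57, adjusted p 0.225). Pcdhgc4 was 4.13, 0.572 and 3.89 CPM against 0.456, 1.32 and 0.608 CPM, with the log2 fold change at -1.88 (SE 0.77, adjusted p 0.232). Its 28-2EV replicate 2 thus lay within the miR-200 libraries. Pcdhgc5 was below the filter, with 26, 3 and 60 counts in 28-2EV and 5, 1 and 2 counts in 28-2-200f. Pcdhb17, Pcdhb18 and Pcdhb19 had positive log2 fold changes of 0.07, 0.13 and 0.68 with standard errors of 0.52 to 0.66, while those of Pcdhgb6 and Pcdhga12 were -1.17 (SE 0.57) and -0.01 (SE 0.51). The median over the 8 genes was -0.11, against -0.01 over all genes. Without 28-2EV replicate 2, Pcdh1, Pcdh7, Pcdh15 and Pcdh17 were called higher and Pcdhgb7, Pcdhgc4 and Pcdhgc5 lower, and Pcdhb17 and Pcdhb18 turned to -0.26 and -0.20, where 5.06% of all genes were higher and 5.49% lower. That fit tested 20 members, 13 of them clustered. Pcdhgb7 and Pcdhgc5 entered it only with replicate 2, their lowest 28-2EV library, left out, and they passed the filter through 28-2EV alone. A lower value was thus built into the selection of both.

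**Figure D5:**
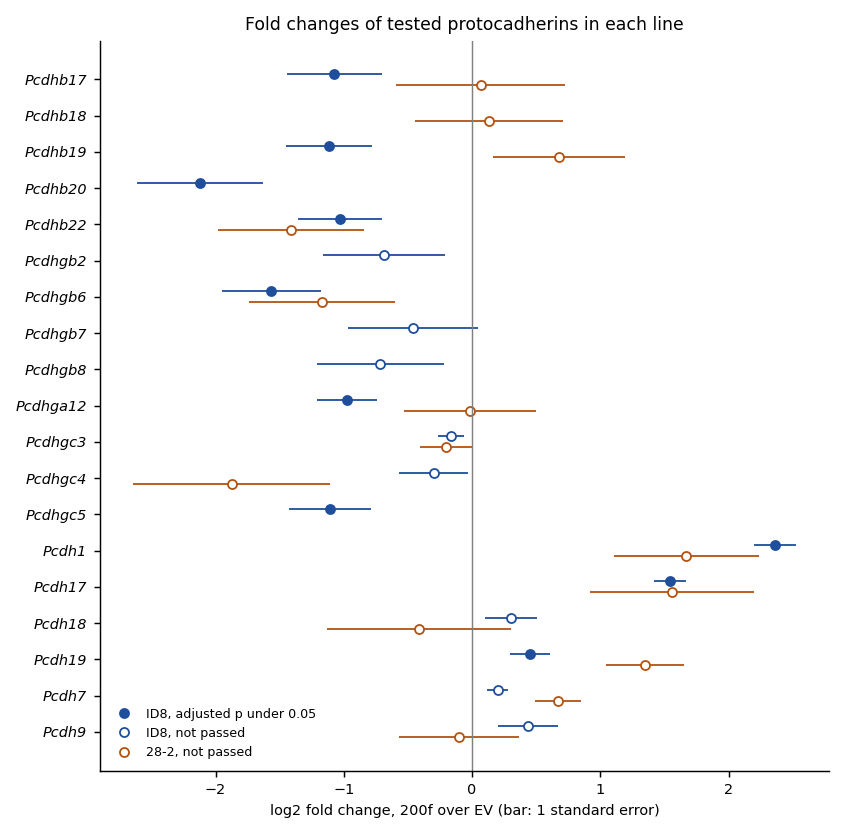
Log2 fold change (200f over EV, horizontal axis) with 1 standard error for each protocadherin tested in ID8 (blue) and 28-2 (orange), filled where the adjusted p was under 0.05. Clustered genes of ID8 lie at or below -0.16 and its non-clustered genes above 0, while the 28-2 errors are wider and Pcdh15, whose empty vector groups were at 0 counts, is left out.

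The difference between the lines in the response to miR-200 was tested directly as an interaction over all 12 libraries, and 0 of 20 protocadherins passed by edgeR or by DESeq2, where edgeR called 2.97% of 13620 genes (2.26% higher and 0.712% lower in 28-2) and DESeq2 called 4.40% higher and 2.36% lower. At an unadjusted p under 0.05 edgeR gave 4 higher and 0 lower in 28-2, beside 9.38% and 6.54% of all genes. The 4 were Pcdhb19 (difference of log2 fold changes 1.80, SE 0.63, adjusted p 0.174), Pcdhb20 (2.07, SE 0.90, adjusted p 0.285), Pcdh19 (0.90, SE 0.38, adjusted p 0.267) and Pcdh7 (0.48, SE 0.18, adjusted p 0.218). The responses of Pcdh17 differed by 0.02 (SE 0.63), and those of Pcdh1 by -0.68 (SE 0.64). For Pcdh15 no difference could be estimated, since both empty vector groups were at 0. Without 28-2EV replicate 2, Pcdhgc4 (-2.08, adjusted p 0.0410) and Pcdhgc5 (-2.85, adjusted p 0.0462) were called lower and Pcdh7 (0.63, adjusted p 0.0284) higher in 28-2, beside 1.75% and 2.82% of all genes. The lower calls of clustered genes in ID8 alone are therefore not shown to be particular to that line.

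Between the empty vector lines, the most abundant delta protocadherins were lower in 28-2. Pcdh19 had a log2 difference of -1.26 (SE 0.24, adjusted p 0.0348) and Pcdh7 one of -0.89 (SE 0.17, adjusted p 0.0324), and neither overlapped. These were 2 of 19 protocadherins tested, with 0 higher, beside 2.52% lower and 0.887% higher (3.41% in either direction) of 13073 genes. Pcdh19 lost its call in 4 of the 6 fits without 1 library and Pcdh7 in 5. Pcdh17 had a log2 difference of -1.22 (SE 0.51, adjusted p 0.293) and was called lower without 28-2EV replicate 2 (-2.12, adjusted p 0.000906). That fit called 3 of 20 members lower and 0 higher, beside 5.41% and 4.90% of all genes. Pcdhga12 (-1.49, SE 0.48, adjusted p 0.183), Pcdhb19 (-1.36, SE 0.41, adjusted p 0.159) and Pcdhb20 (-1.50, SE 0.46, adjusted p 0.164) did not overlap between the lines but did not pass the test, while 7 of the 19 members and 24.5% of all genes did not overlap. DESeq2 added Pcdhga12 to the calls (adjusted p 0.0442), with 653 of the 13073 genes lower by that tool. This comparison shares its empty vector libraries with those above, so its values are not independent of them.

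Genes that act on the clusters or with the proteins were counted from lists chosen for their known roles. Of 22 regulators of the clusters, 3 were higher and 0 lower in ID8, beside the 17.0% and 19.0% of all genes. These were the maintenance DNA methyltransferase Dnmt1 (log2 fold change 0.59, SE 0.10, adjusted p 0.000532), the cohesin subunit Smc1a (0.34, SE 0.08, adjusted p 0.00533) and the zinc finger gene Wiz (0.23, SE 0.08, adjusted p 0.0466). In 28-2 cells 0 of the 22 changed in either direction by edgeR, the nearest being the de novo methyltransferase Dnmt3b (-1.33, SE 0.37, adjusted p 0.0935). Of 20 signalling partners tested in ID8, 5 were higher and 3 lower, with the receptor kinase Ret (3.02, SE 0.48), the cadherin Cdh1 (0.36, SE 0.10) and Ctnnb1 (0.29, SE 0.08) higher and the kinase Ptk2b (-2.04, SE 0.16), the N-cadherin gene Cdh2 (-0.32, SE 0.10) and the WAVE complex gene Abi2 (-0.30, SE 0.09) lower. In 28-2 none of 19 partners passed. Of the larger cadherin relatives, Celsr1 (0.42, SE 0.09), Fat1 (0.48, SE 0.11) and Clstn3 (0.54, SE 0.14) were the 3 higher of 6 tested in ID8, and Dchs2 (-3.21, SE 0.64) was the 1 lower of 5 in 28-2. Like the called clustered genes, all 5 fibroblast markers tested, Col1a1 and Pdgfra among them, were lower in ID8-200f, and their summed level was 464 to 515 CPM in ID8EV and 118 to 169 CPM in ID8-200f. Of 3 neuronal markers tested 2 were lower, and all 10 summed to 15.1 to 18.7 CPM in ID8EV and 13.4 to 14.9 CPM in ID8-200f. In 28-2 cells 2 of 4 fibroblast markers tested were lower, with sums of 84.1 to 478 CPM in 28-2EV and 229 to 391 CPM in 28-2-200f. In the same test 1 of 1 endothelial marker (Pecam1, -1.59) and 1 of 2 glial markers (Mbp, -0.46) were lower in ID8, and the neuronal marker Tubb3 was lower in 28-2 (-3.07). Of the 10 ovarian surface markers, 4 were higher and 5 lower in ID8, and 2 higher and 1 lower in 28-2. The part of these markers in the protocadherin changes was not tested.

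Matches to the miR-200 seeds were sought on the message strand of the longest annotated 3′UTR of each gene, as CAGTATT for miR-200b, miR-200c and miR-429 and as CAGTGTT for miR-200a and miR-141. Of all 20710 genes with such a region, 13.5% held the former, 17.4% the latter and 26.1% either. Of 69 protocadherins with a region, 16 held a match, 8 of them beta genes and 8 non-clustered genes. The 14 alpha genes and the 21 gamma genes with an entry share their cluster's 3′ end, 2404 bases in alpha and 1744 to 1747 bases in gamma, and none held a match. The 3 genes that rose in ID8 each held a match and so did 3 of the 7 that fell, namely Pcdhb17 with 1, Pcdhb19 with 3 and Pcdhb22 with 2, while Pcdhb20 and the 3 gamma genes held 0. Non-clustered 3′UTRs are long, with a median of 3775 bases, and 70.2% of genes with a region as long as that of Pcdh17 and 68.0% for Pcdh19 held a match to either. This share was 60.0% for Pcdh1. Among the genes that fell it was 63.1% for Pcdhb19, 57.3% for Pcdhb22 and 36.0% for Pcdhb17. For Pcdhb20 and the 3 gamma genes, which held no match, it was 22.4% and 33.7%. The single matches of 3 genes that were higher with miR-200, and that of Pcdh9, which was not called, are printed 5′ to 3′ as DNA from the GENCODE M21 transcripts, with the 7 matching letters in capitals.
Pcdh17, chromosome 14, base 3800 of the 3′UTR: ctggcccCAGTGTTtttgcag
Pcdh19, chromosome X, base 1139: cctgattCAGTGTTttcccaa
Pcdh15, chromosome 10, base 1154: gaagacaCAGTGTTttgccat
Pcdh9, chromosome 14, base 506: agtcaatCAGTGTTaaagtat
All 4 were partners of the miR-200a and miR-141 seed, as was the single match of Pcdh1, which is not printed, and no match of either kind was found in the regions of Pcdh7 and Pcdh18. A match is a string of letters here, and binding was not measured.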

How the data were processed

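Total RNA was sequenced from 12 libraries. In the authors' Genialis pipeline, BBDuk trimmed the reads, STAR did the alignment and featureCounts gave whole-number counts per gene. Whole-number counts, TPM and CPM values were deposited, the CPM and TPM values being computed by the authors' pipeline from the same counts. Submitters' notes name GRCm39, while exon lengths implied by the deposited counts and TPM equalled those of GENCODE M21 (GRCm38) within 0.1% for 51 of 51 protocadherins with reads, so M21 gave gene order, shared exons and 3′UTRs and no coordinates are printed. The strand setting and the aligner version were not stated in the paper or labels. Library depth was 16390953 to 23063875 counts.

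CPM in the text used TMM-scaled library sizes. Each comparison was fitted to its own 2 groups over all genes with edgeR 4.0.16 in R 4.3.3 (TMM scaling, quasi-likelihood test, filterByExpr at a count of 10 and a total of 15, Benjamini-Hochberg), called at an adjusted p under 0.05. Standard errors are the absolute log2 fold change over the square root of F. The interaction used all 12 libraries. P-values set a group difference against the spread between these libraries. Each group came from a drug-selected population, so they do not cover the spread between separate infections or selections. Intervals and floors (3 counts) cover counting error only, since reads carry no molecular identifiers. The steps were tested on simulated counts. Alternatives were DESeq2 1.42.0, RLE and total-size scaling, no filter, 1 CPM in 3 libraries, the cut-off of the study, limma 3.58.1 on log2(TPM + 1) and log2(TPM + 0.1), the replicate number as a block, all 4 groups together, leaving out each library, and detection at 0.1 or 1 CPM. Named were every called member, every non-clustered member tested, the 4 members per cluster with the highest mean TPM, and up to 3 list genes per direction by adjusted p. Genes with low counts that are named for ratios, and those called without 28-2EV replicate 2, were picked after their values were seen. The members and lists were chosen with earlier results of these data known. Python 3.11.15, numpy 2.4.6, pandas 2.3.3 and scipy 1.17.1 were used.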

Additional observations from a re-analysis of the deposited data

Results flagged for a closer look

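No protocadherin differed between the lines in its response to miR-200 by the interaction test of edgeR over all 12 libraries, but 6 of the list genes counted beside them did. Each value is the log2 fold change in 28-2 less that in ID8, with its adjusted p. Among the signalling partners the differences were 1.52 for the kinase Ptk2b (SE 0.32, adjusted p 0.0260), whose ID8 mean went from 34.9 to 8.59 CPM and 28-2 mean from 46.3 to 32.8 CPM, and 2.32 for the cadherin Cdh1 (SE 0.55, adjusted p 0.0426), which had 27.4 and 35.7 CPM in ID8 but 0.468 and 3.13 CPM in 28-2. Among markers they were 1.99 for the collagen gene Col1a1 (SE 0.30, adjusted p 0.00322), 2.79 for Bnc1 (SE 0.33, adjusted p 0.000742), 0.96 for Krt19 (SE 0.17, adjusted p 0.00869) and -2.60 for Tubb3 (SE 0.57, adjusted p 0.0304). By list, 2 of 20 signalling partners, 2 of 10 ovarian surface, 1 of 5 fibroblast and 1 of 3 neuronal markers passed. Of 22 cluster regulators and 6 larger cadherin relatives 0 passed, and none of the immune, endothelial or glial markers tested did. Beside these, 2.97% of all genes passed. The cause of these differences was not tested.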

How the results depend on the processing

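No single-gene log2 fold change that was called reversed under any alternative. In ID8, the 3 higher and 7 lower calls became 1 and 0 with all 4 groups in one fit, and 2 lower at the cut-off of the study. Leaving out each library gave 2 to 3 higher and 4 to 7 lower, with 4 lower without ID8-200f replicate 2 or without ID8-200f replicate 3. In 28-2, the 1 higher call became 4 with DESeq2, 3 with no filter (2.04% of all genes) and 5 with all 4 groups in one fit (9.12% of all genes), and 0 at the cut-off of the study, with limma on either TPM scale and with the replicate block. With an adjusted p below 0.01 and a log2 fold change beyond 1 either way, edgeR called only 96 of 12679 genes (0.757%) in 28-2. The paper reported far more genes for that line at this cut-off, so the absence of protocadherin calls there holds for the present fit only. The 0 lower became 1 with no filter (Pcdhgc5, beside 2.31% of all genes) and 2 with all 4 groups (Pcdhgb7 and Pcdhgc5, beside 7.95%). Leaving out each 28-2 library gave 0 to 4 higher and 0 to 3 lower, with 0 higher without 28-2EV replicate 1 or any 28-2-200f library, and the most calls without 28-2EV replicate 2. That last fit tested 20 members in place of 15. Between the empty vector lines the 2 lower calls became 0 at the cut-off of the study and 0 to 3 on leaving out libraries. They were 0 without ID8EV replicate 1, without ID8EV replicate 2 or without 28-2EV replicate 1. There was 1 without ID8EV replicate 3 (Pcdh19) and 1 without 28-2EV replicate 3, where Pcdhb19 was called in place of both. The 3 came without 28-2EV replicate 2, which added Pcdh17. The interaction went from 0 to 1 higher with no filter (Pcdh19, beside 2.13% of all genes), and leaving out libraries gave 0 to 1 higher and 0 to 2 lower, the calls coming without 28-2EV replicate 2. Replicate numbers did not pair the samples, since the correlation of deviations in same-numbered libraries was -0.13, 0.06 and -0.03 in ID8 and 0.24, 0.13 and -0.34 in 28-2. With the replicate block, ID8 kept 3 and 7 calls, and between the empty vector lines 2 were lower. Detection at 0.1 in place of 0.5 CPM gave 29 genes in ID8EV, 26 in ID8-200f, 28 in 28-2EV and 25 in 28-2-200f. The cause of these shifts was not tested. At this depth 16 of the 22 beta, 19 of the 22 gamma and 7 of the 12 non-clustered genes had 10 or more reads over all libraries.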
